A study of Mus with 3 samples.

Results

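The levels of 9 genes for secreted proteins and receptors of the airway surface were followed through 3 single-cell libraries of mouse lung: the secretoglobins Scgb1a1, Scgb3a1 and Scgb3a2, the BPI-fold proteins Bpifa1 and Bpifb1, the lectin Reg3g, the immunoglobulin carrier Pigr, lactoferrin (Ltf) and the whey-acidic-protein-domain protein Wfdc2. They were chosen by name, as 9 of the 27998 genes in the files, and each was matched by its symbol to 1 gene. The DJ-1 KO OVA library came from mice without DJ-1, the protein made by the gene Park7, that had been challenged with ovalbumin (OVA). The WT OVA library came from wild-type mice challenged with OVA, and the WT PBS library from wild-type mice given phosphate-buffered saline. All animals were female and 6 to 12 weeks old, whole lung was taken, and each library pooled 3 mice. The title of the WT PBS sample names an OVA challenge, while its treatment label and its library name give PBS, and these were followed. The labels used here do not say how the mice were sensitised or how the DJ-1 allele was made.

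Club cells are the non-ciliated secretory cells of the small airways, goblet cells are the mucous secretory cells of the airway, and alveolar type 2 (AT2) cells make surfactant in the alveoli. Secretoglobins are small secreted dimers with anti-inflammatory roles, and Scgb1a1 is the classic club cell product. The BPI-fold proteins, Reg3g, Ltf and Wfdc2 are released into airway lining fluid, where they take part in defence against microbes, and Pigr carries dimeric IgA across the epithelium into that fluid.

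On the RefSeq annotation of GRCm38.p6, Scgb1a1 (ENSMUSG00000024653) lies on chromosome 19 at 9083642 to 9087956, Scgb3a1 (ENSMUSG00000064057) on chromosome 11 at 49663595 to 49665118, and Scgb3a2 (ENSMUSG00000038791) on chromosome 18 at 43764301 to 43767399. Bpifa1 (ENSMUSG00000027483) and Bpifb1 (ENSMUSG00000027485) lie near each other on chromosome 2, at 154142880 to 154149217 and at 154190818 to 154220343, and Wfdc2 (ENSMUSG00000017723) lies on the same chromosome at 164562715 to 164568510. Reg3g (ENSMUSG00000030017) is on chromosome 6 at 78466269 to 78468874, Pigr (ENSMUSG00000026417) on chromosome 1 at 130826684 to 130852249, and Ltf (ENSMUSG00000032496) on chromosome 9 at 111019292 to 111042766. The counts are 3′ tags of whole genes and do not separate exons or isoforms.

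The files held 4666 cell barcodes and 17339386 unique molecular identifiers (UMIs, counted molecules) for DJ-1 KO OVA, 6406 and 24438516 for WT OVA, and 4556 and 26548669 for WT PBS. The DJ-1 KO OVA and WT PBS libraries shared 372 barcodes, whereas WT OVA shared 5 with DJ-1 KO OVA and 6 with WT PBS. Fewer UMIs lay on the DJ-1 KO OVA side in 66 of the 372 pairs, at a median of 2.15% of the partner's UMIs, and on the WT PBS side in 306, at a median of 4.91%. The smaller cell of each pair was left out. The cells used were 4438 in DJ-1 KO OVA, 5930 in WT OVA and 3855 in WT PBS, and their median depths were 1653, 2060.5 and 4093 UMIs in the same libraries. Levels are given as UMIs of a gene per 1000000 UMIs of the cells in question (CPM). Park7 gave 20.8 CPM over all cells in DJ-1 KO OVA, 100.3 in WT OVA and 135.6 in WT PBS, although 3′ tags outside a deleted stretch would still be counted. With 1 pooled library per group there is no test between groups. Every interval below is a 95% interval for counting error only.

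Cells were clustered without the 9 genes, and clusters were named from other markers. Club-like cells numbered 31 in DJ-1 KO OVA, 57 in WT OVA and 24 in WT PBS. Goblet-like cells numbered 73 in DJ-1 KO OVA, 57 in WT OVA and 23 in WT PBS, and AT2-like cells 296 in DJ-1 KO OVA, 769 in WT OVA and 303 in WT PBS. Barcode sharing touched these classes unevenly, since 25 of the 31 DJ-1 KO OVA club-like cells and 50 of its 73 goblet-like cells were the larger cell of a shared barcode. In WT PBS the same held for 11 of 24 club-like and 19 of 23 goblet-like cells. The club marker list, summed over club-like cells, reached 18722 CPM in DJ-1 KO OVA, 19285 in WT OVA and 20397 in WT PBS. The AT2 list, summed over AT2-like cells, reached 141369 CPM in DJ-1 KO OVA, 176256 in WT OVA and 226638 in WT PBS. The goblet list, summed over goblet-like cells, reached 109561 CPM in DJ-1 KO OVA, 37431 in WT OVA and 6349 in WT PBS. The WT PBS goblet-like cells therefore carried fewer mucous transcripts than those of the other libraries, with the mucin Muc5ac at 26.8 CPM and 55.7% of their Clca1 UMIs in 1 cell.

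In club-like cells the 9 genes together made up 40.3% of all UMIs in DJ-1 KO OVA, 52.5% in WT OVA and 58.5% in WT PBS. Their part of goblet-like UMIs was 32.6% in DJ-1 KO OVA, 45.0% in WT OVA and 49.8% in WT PBS. In AT2-like cells it was 0.440% in DJ-1 KO OVA, 0.711% in WT OVA and 0.377% in WT PBS. B cells, which should make none of these proteins, gave the level of free RNA: there the 9 genes made up 0.198% of UMIs in DJ-1 KO OVA, 0.157% in WT OVA and 0.0635% in WT PBS. In goblet-like cells of every library, each of the 9 genes had a CPM interval wholly above that of the B cell-like cells. The same held in club-like cells for 9 genes in DJ-1 KO OVA, 7 in WT OVA and 6 in WT PBS, and in AT2-like cells for 3 in DJ-1 KO OVA, 4 in WT OVA and 1 in WT PBS.

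**Figure D1:**
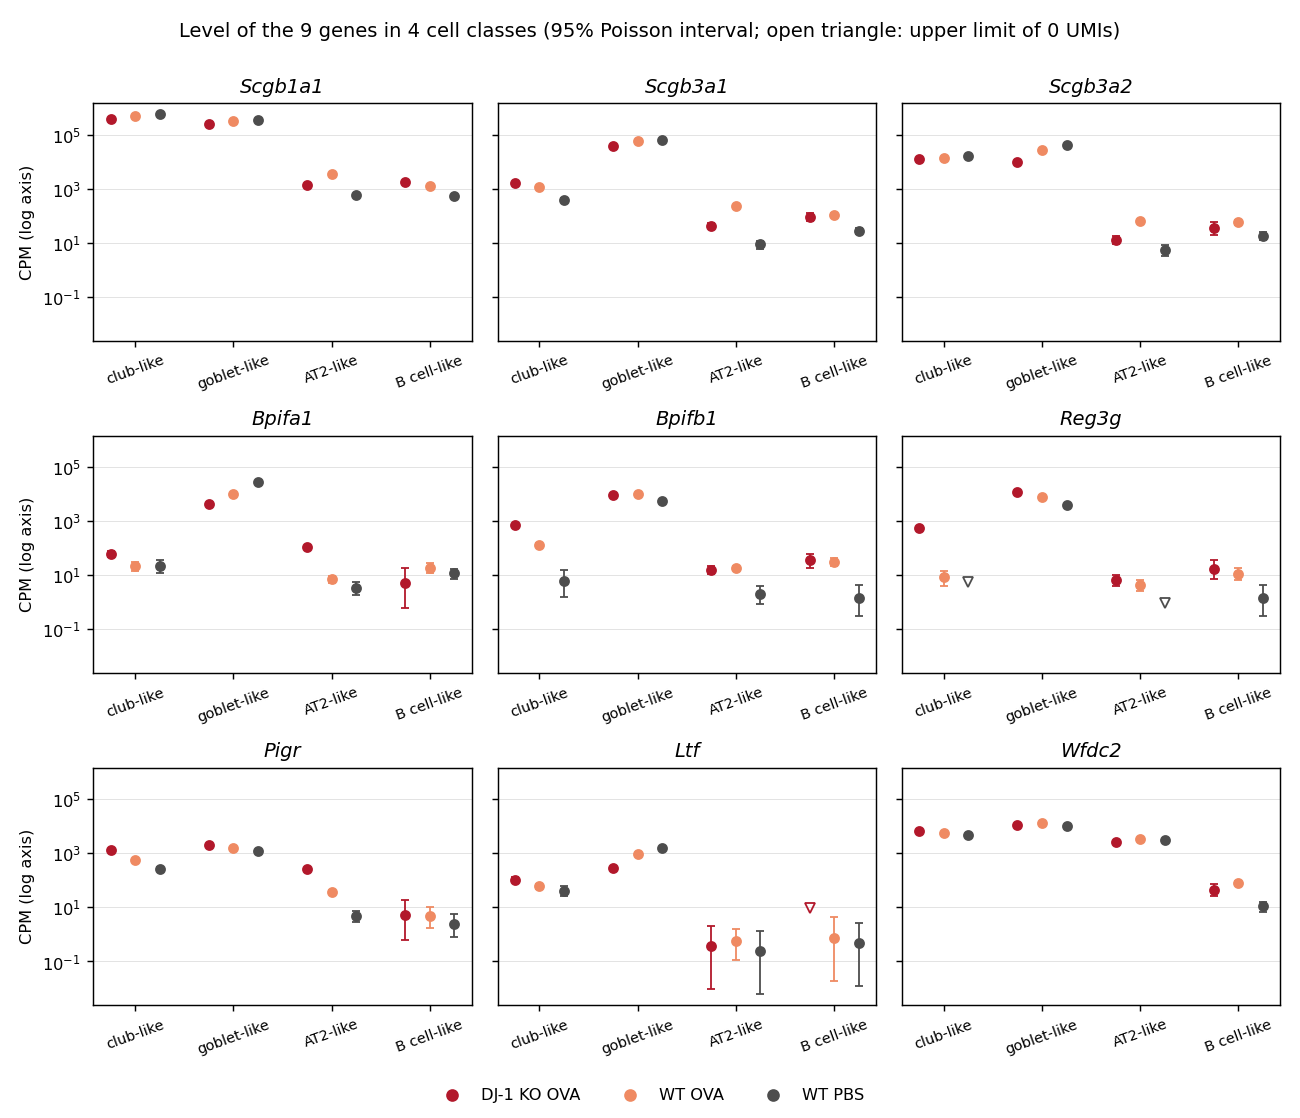
Level of each of the 9 genes (CPM, log axis) in club-like, goblet-like, AT2-like and B cell-like cells of the DJ-1 KO OVA, WT OVA and WT PBS libraries; bars are 95% Poisson intervals and an open triangle is the upper limit that 0 UMIs allows. Scgb1a1 lies between 240846 and 563313 CPM in club-like and goblet-like cells and between 560 and 1744 CPM in B cell-like cells.

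Among 17 cell classes, goblet-like cells held the highest CPM of 6 of the 9 genes in DJ-1 KO OVA and of 8 in both WT OVA and WT PBS. Scgb1a1 was highest in club-like cells in every library, and Scgb3a2 was highest there in DJ-1 KO OVA only. Ltf was highest in neutrophil-like cells in DJ-1 KO OVA, at 312 CPM against 272 in goblet-like cells, but 1 neutrophil-like cell held 98.6% of its UMIs there and left 4.38 CPM without it. Most Scgb3a1 lay in 1 class: goblet-like cells held 96.3% of its UMIs in DJ-1 KO OVA, 95.5% in WT OVA and 98.9% in WT PBS. Ltf had a second source in neutrophil-like cells, which store lactoferrin in their granules and held 10.3% of its UMIs in DJ-1 KO OVA, 35.1% in WT OVA and 40.5% in WT PBS. Wfdc2 had the largest AT2 share of the 9 genes in every library, at 19.8% of its UMIs in DJ-1 KO OVA, 39.7% in WT OVA and 45.9% in WT PBS.

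In club-like cells Pigr and Bpifb1 were at least 2-fold higher with DJ-1 KO OVA over WT OVA, and so were Reg3g and Bpifa1 through 1 cell, while the 3 secretoglobins stayed within 2-fold. WT OVA stood above WT PBS in Scgb3a1, Bpifb1 and Pigr. A gene was called measured with at least 50 UMIs in both libraries together. Of 9 measured members, 4 were at least 2-fold higher and 0 at least 2-fold lower in DJ-1 KO OVA than WT OVA, where 5.61% and 2.27% of 3173 measured genes were higher and lower. The members' median log2 ratio was 0.79, and that of all genes was 0.19. With 1 DJ-1 KO OVA cell left out, the one with the most Reg3g, 2 of 7 measured members were higher, Pigr and Bpifb1, and 0 lower, where 5.48% and 2.58% of 3066 genes were, with medians of 0.23 and 0.17. For WT OVA over WT PBS, 3 of 7 measured members were at least 2-fold higher and 0 lower, where 6.63% and 0.307% of 2610 genes were, and the medians were 0.59 for the members and 0.23 for all genes. The members not measured there were Bpifa1, with 28 UMIs in WT OVA and 15 in WT PBS, and Reg3g, with 11 and 0.

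**Figure D2:**
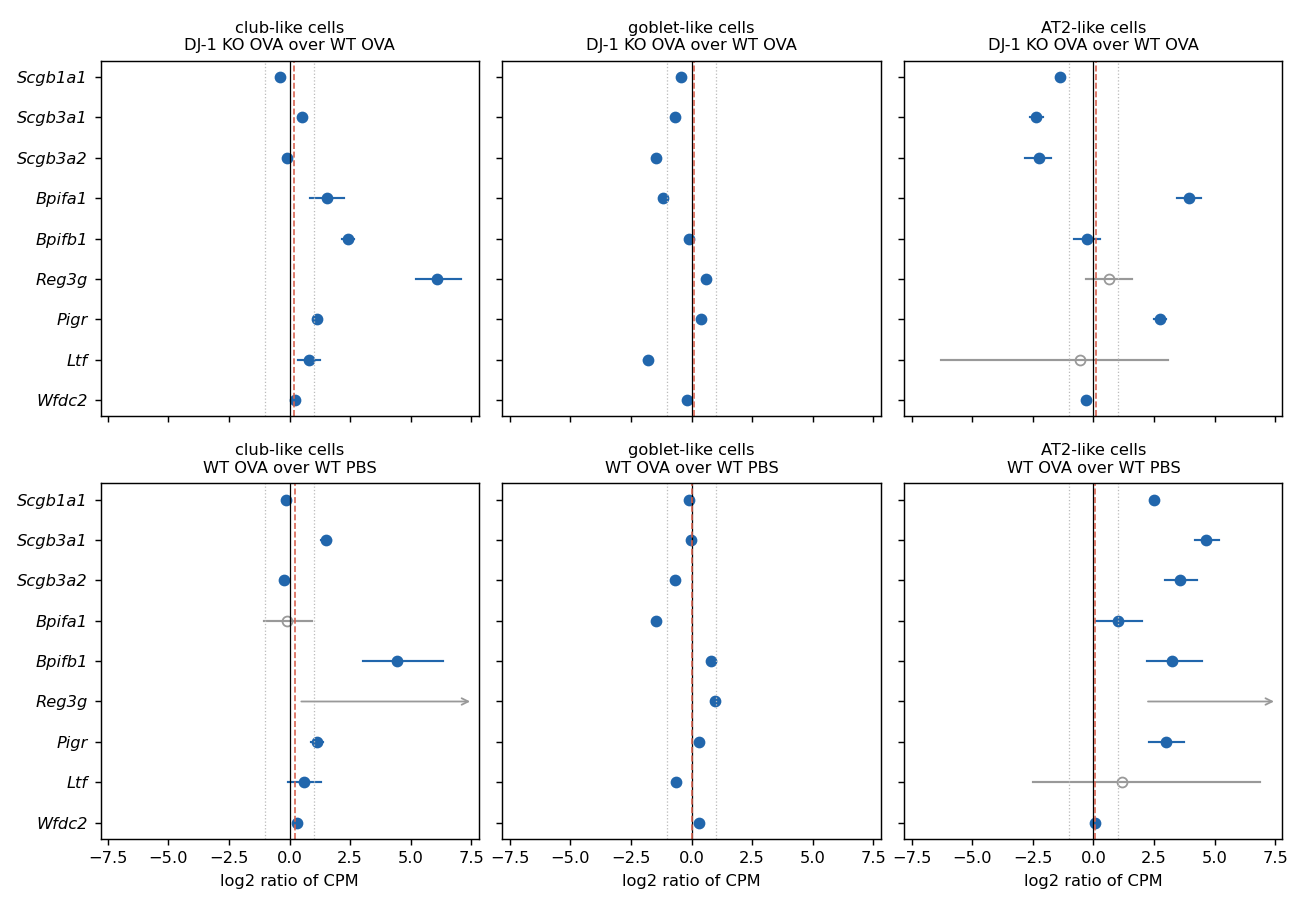
Log2 ratio of each gene's CPM in club-like, goblet-like and AT2-like cells, with DJ-1 KO OVA over WT OVA above and WT OVA over WT PBS below; bars are 95% counting intervals, filled points have at least 50 UMIs, open grey points fewer, and an arrow marks 0 UMIs in the second library. Dashed lines are the median of all genes and dotted lines 2-fold; in goblet-like cells Scgb3a2, Bpifa1 and Ltf lie below the lower dotted line with DJ-1 KO OVA over WT OVA.

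Scgb1a1 in club-like cells reached 379074 CPM in DJ-1 KO OVA, 503170 in WT OVA and 563313 in WT PBS. The ratio of DJ-1 KO OVA to WT OVA was 0.753 and that of WT OVA to WT PBS 0.893 (0.890 to 0.897). Its relative Scgb3a2, which club and goblet cells share, had 13083 CPM in DJ-1 KO OVA, 14233 in WT OVA and 16886 in WT PBS. Over the class both secretoglobins were thus lowest in DJ-1 KO OVA and highest in WT PBS, by small steps. WT PBS was highest through its 11 larger cells of shared barcodes, at 588358 CPM of Scgb1a1 and 18273 of Scgb3a2. Its 13 cells with an unshared barcode, with a median of 6121 UMIs, had 386849 and 7108 CPM, below WT OVA. With each cell thinned to 1000 UMIs, the log2 ratios of WT OVA to WT PBS turned, to 0.03 and 0.11. Scgb3a1, the secretoglobin of mucous cells, had 1594 CPM in DJ-1 KO OVA, 1127 in WT OVA and 397 in WT PBS. Its ratio was 1.41 for DJ-1 KO OVA to WT OVA and 2.84 (2.49 to 3.24) for WT OVA to WT PBS. These sums rested on few cells, since the highest cell held 42.4% of the Scgb3a1 UMIs in DJ-1 KO OVA, 28.8% in WT OVA and 59.0% in WT PBS. The median club-like cell had 55.8 CPM in DJ-1 KO OVA, 55.6 in WT OVA and 0 in WT PBS. The mean of the cells' own CPM turned both comparisons, with log2 ratios of −0.61 for DJ-1 KO OVA to WT OVA and −0.42 for WT OVA to WT PBS, and so did club-like and goblet-like cells pooled, at −0.28 in each. Thinned to 1000 UMIs per cell, the OVA libraries gave −0.40, and without the DJ-1 KO OVA cell with the most Reg3g the level there was 991 CPM, below WT OVA. The order of the OVA libraries in Scgb3a1 was thus not fixed in club-like cells.

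Pigr was found in most club-like cells of every library. It had 1243 CPM in DJ-1 KO OVA, 565 in WT OVA and 259 in WT PBS, with a ratio of 2.20 for DJ-1 KO OVA to WT OVA and 2.18 (1.84 to 2.58) for WT OVA to WT PBS. The median cell had 1228 CPM in DJ-1 KO OVA, 411 in WT OVA and 245 in WT PBS. Sums and median cells thus gave the libraries in the same order. The club-like class joined 3 clusters of unequal make-up: DJ-1 KO OVA gave 10, 3 and 18 of their cells, WT OVA 34, 17 and 6, and WT PBS 15, 7 and 2. In the first, Pigr was 1126 CPM in DJ-1 KO OVA, against 453 in WT OVA, a ratio of 2.49 (2.18 to 2.84). In the second it was 1114 CPM in DJ-1 KO OVA, against 824 in WT OVA, a ratio of 1.35 whose interval includes 1 (0.773 to 2.21), and in the third 1353 CPM in DJ-1 KO OVA, against 888 in WT OVA, a ratio of 1.52 (1.23 to 1.89). Pigr was thus past 2-fold in the first cluster and over the class, and not in the second or the third. At least 1 Pigr UMI was found in 30 of 31 cells in DJ-1 KO OVA, 52 of 57 WT OVA cells and 18 of 24 WT PBS cells. Median depths of these cells ran in the same order, at 26415 UMIs in DJ-1 KO OVA, 21901 in WT OVA and 14293.5 in WT PBS, and depth moves such shares.

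Bpifb1, an airway-fluid protein of the lipid-binding BPI fold, had 678 CPM in DJ-1 KO OVA club-like cells, against 127 in WT OVA and 5.93 in WT PBS, where 4 UMIs were counted. The ratio was 5.32 (4.49 to 6.34) for DJ-1 KO OVA to WT OVA and 21.5 (8.24 to 79.8) for WT OVA to WT PBS. A UMI was found in 15 of 31 cells in DJ-1 KO OVA, 17 of 57 WT OVA cells and 4 of 24 WT PBS cells. Of the shallower B cell-like cells, 3.95% had one in DJ-1 KO OVA, 4.21% in WT OVA and 0.478% in WT PBS. Most club-like cells thus had no Bpifb1 UMI in WT OVA or WT PBS, and about as many had none as had one in DJ-1 KO OVA. Its relative Bpifa1, a surfactant-like protein of airway fluid, had 60.1 CPM in DJ-1 KO OVA, 20.9 in WT OVA and 22.2 in WT PBS. Of the 54 Bpifa1 UMIs in DJ-1 KO OVA 1 cell held 41, and without it the level was 15.6 CPM, below WT OVA.

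Reg3g, a lectin that binds the cell walls of Gram-positive bacteria, had 549 CPM in DJ-1 KO OVA club-like cells, against 8.20 in WT OVA and 0 in WT PBS, where 0 UMIs allow up to 5.47 CPM. In DJ-1 KO OVA 1 cell held 99.6% of the 493 Reg3g UMIs, and without it 2 UMIs, or 2.40 CPM, were left. That cell was the larger of a shared barcode and had 65171 UMIs, with 1851 of Chil4, 786 of Clca1, 606 of Scgb3a1 and 41 of Bpifa1. The Reg3g and Bpifa1 differences between the OVA libraries in club-like cells were therefore those of 1 cell, whereas Bpifb1 stayed at 534 CPM without it, a ratio of 4.19 (3.51 to 5.03) to WT OVA. The cell left out held 164 of the 609 Bpifb1 UMIs in DJ-1 KO OVA. A different cell, which was kept, held 194 of them, so Bpifb1 also lay largely in few cells. The goblet list summed to 4015 CPM in DJ-1 KO OVA club-like cells, against 423 in WT OVA and 75.6 in WT PBS, and its part in the values of Bpifa1, Bpifb1, Reg3g and Scgb3a1 was not tested.

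Ltf, which binds iron, had 105 CPM in DJ-1 KO OVA club-like cells, against 60.4 in WT OVA and 40.0 in WT PBS. The ratio was 1.73 (1.27 to 2.36) for DJ-1 KO OVA to WT OVA, and for WT OVA to WT PBS it was 1.51 with an interval that includes 1 (0.965 to 2.43). Neutrophil markers in the same cells summed to 621 CPM in DJ-1 KO OVA, 902 in WT OVA and 47.4 in WT PBS. Most of the DJ-1 KO OVA sum was Retnlg, at 617 CPM and found in 26 of 31 cells. S100a8 and S100a9 had 1.11 and 2.23 CPM there. The WT OVA sum held 120 CPM of Retnlg, 348 of S100a8 and 384 of S100a9, and 1 cell held 60.5% of it. Retnlg is also among the other airway defence genes described below. The part of these markers in the Ltf values was not tested. Wfdc2, a secreted protein with antiprotease-type domains, had 6514 CPM in DJ-1 KO OVA, 5551 in WT OVA and 4437 in WT PBS. With a ratio of 1.17 it was the member closest to the median of all genes with DJ-1 KO OVA over WT OVA in club-like cells.

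Club-like cells were also split by barcode sharing, and 6 of the DJ-1 KO OVA cells had an unshared barcode, with a median of 5905 UMIs. In these 6 cells Pigr was 1958 CPM, and in the 25 larger cells of shared barcodes 1217 CPM, both above WT OVA. Bpifb1 and Scgb3a1 had 3 UMIs each in the unshared cells, or 94.8 CPM (19.5 to 277), and 700 and 1648 CPM in the shared kind. The unshared cells thus did not show the higher Bpifb1 and Scgb3a1 of DJ-1 KO OVA, with intervals that include the WT OVA level for Bpifb1 and lie below it for Scgb3a1.

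**Figure D3:**
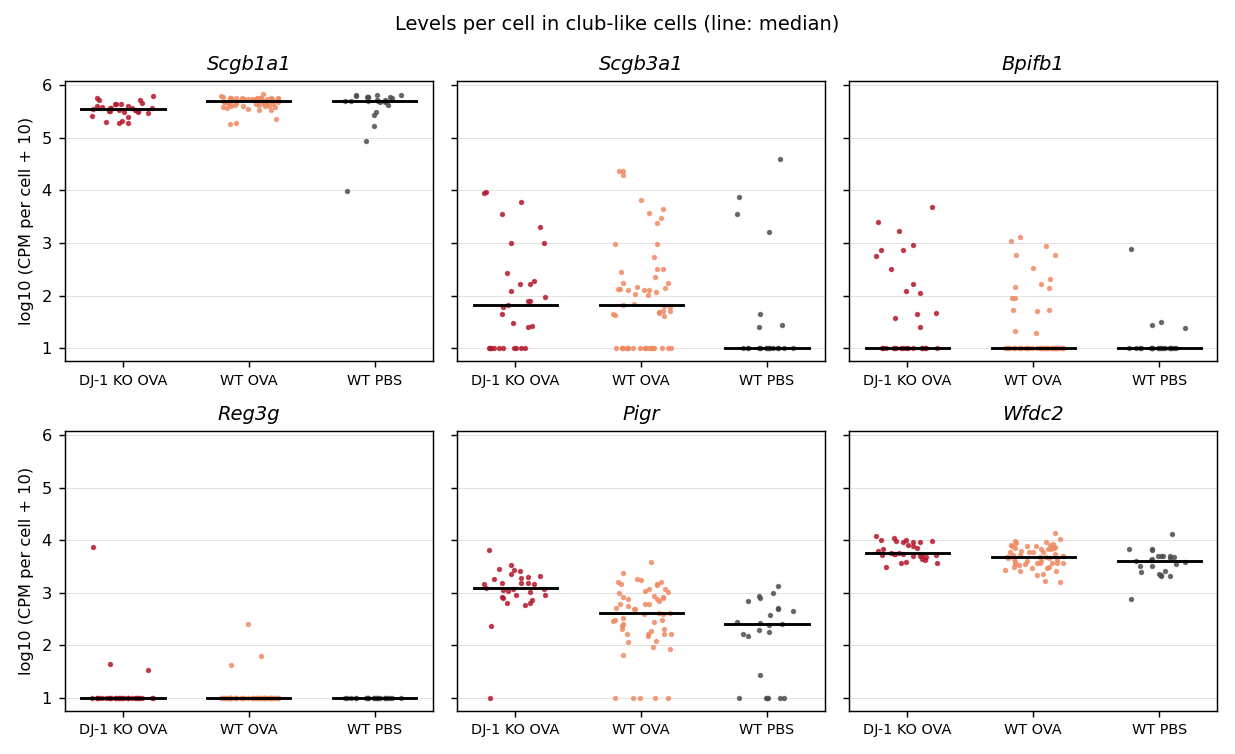
Level of 6 genes in each club-like cell, as log10(CPM per cell + 10), in DJ-1 KO OVA (31 cells), WT OVA (57) and WT PBS (24); each point is 1 cell. Pigr is spread over most cells of every library, while Reg3g stands high in 1 cell of DJ-1 KO OVA.

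In goblet-like cells Scgb3a2, Bpifa1 and Ltf were lowest in DJ-1 KO OVA and highest in WT PBS. Reg3g ran the other way, and Pigr followed Reg3g with smaller steps, although its log2 ratio for WT OVA to WT PBS was −0.36 with cells thinned to 1000 UMIs, against 0.33. Of the 23 WT PBS goblet-like cells, 19 were the larger cell of a shared barcode. The 4 others had 16870 CPM of Bpifa1, 35931 of Scgb3a2 and 1235 of Ltf, each above WT OVA. Their Reg3g, at 1721 CPM, was below WT OVA, and their Pigr, at 2074 CPM, above it. With both cells of shared barcodes left out and the rest clustered again, 0 cells were named club-like. WT OVA then had 119 goblet-like cells, against 57. For that changed class the log2 ratio of WT OVA to WT PBS was 0.35 for Scgb3a2, against −0.67, 0.18 for Ltf, against −0.66, and −0.32 for Bpifa1, against −1.48. In the same setting these 3 genes were each at least 2-fold lower with DJ-1 KO OVA over WT OVA, again for the changed class. Their log2 ratios were −1.95 for Scgb3a2, −1.89 for Ltf and −1.14 for Bpifa1. The setting changed both the cells and the class, so it does not show the part of shared barcodes alone. With DJ-1 KO OVA over WT OVA, 0 of 9 members were at least 2-fold higher and 3 lower, where 3.32% and 2.79% of 4517 genes were, with medians of −0.42 for the members and 0.11 for all genes. For WT OVA over WT PBS, 0 were higher and 1 was lower, where 4.16% and 2.64% of 3558 genes were, with medians of −0.02 and 0.03. At 1.5-fold, 1 member was higher and 4 lower in DJ-1 KO OVA, where 13.3% and 8.30% of genes were, and 2 were higher and 3 lower in WT OVA over WT PBS, where 13.5% and 10.0% were.

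Bpifa1 in goblet-like cells had 4317 CPM in DJ-1 KO OVA, 9637 in WT OVA and 26913 in WT PBS. The ratio was 0.448 (0.436 to 0.461) for DJ-1 KO OVA to WT OVA and 0.358 (0.351 to 0.366) for WT OVA to WT PBS. A UMI was found in 45 of 73 cells in DJ-1 KO OVA, 50 of 57 WT OVA cells and 23 of 23 WT PBS cells, against 0.608%, 2.59% and 3.82% of B cell-like cells in the same libraries. The DJ-1 KO OVA library thus held goblet-like cells with no Bpifa1 UMI beside cells with many. Depth moves such shares, and the median goblet-like cell had 21750 UMIs in DJ-1 KO OVA, 25757 in WT OVA and 46974 in WT PBS. The median cell had 145 CPM in DJ-1 KO OVA, 6690 in WT OVA and 16534 in WT PBS.

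Scgb3a2 in goblet-like cells had 9709 CPM in DJ-1 KO OVA, 26495 in WT OVA and 42073 in WT PBS, with a ratio of 0.366 (0.360 to 0.373) for DJ-1 KO OVA to WT OVA and 0.630 for WT OVA to WT PBS. Its median cell had 6015 CPM in DJ-1 KO OVA, 22850 in WT OVA and 35335 in WT PBS. Like Bpifa1, it thus stood in the same order in sums and in median cells. Ltf had 272 CPM in DJ-1 KO OVA, 946 in WT OVA and 1492 in WT PBS, with a ratio of 0.287 (0.258 to 0.319) for DJ-1 KO OVA to WT OVA and 0.634 for WT OVA to WT PBS. Its median cell had 108 CPM in DJ-1 KO OVA, 361 in WT OVA and 724 in WT PBS, again in that order.

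Reg3g in goblet-like cells had 11529 CPM in DJ-1 KO OVA, 7662 in WT OVA and 3915 in WT PBS, with a ratio between 1.47 and 1.54, its interval, for DJ-1 KO OVA to WT OVA and of 1.96 for WT OVA to WT PBS. The median cell had 9167 CPM in DJ-1 KO OVA, 6813 in WT OVA and 2328 in WT PBS, so the order did not rest on single cells. Pigr had 1967 CPM in DJ-1 KO OVA, 1493 in WT OVA and 1189 in WT PBS. Bpifb1 had 9204 CPM in DJ-1 KO OVA, 9784 in WT OVA and 5534 in WT PBS, a ratio of 0.941 for DJ-1 KO OVA to WT OVA and of 1.77 for WT OVA to WT PBS. Bpifa1 was thus lower and its chromosome 2 neighbour Bpifb1 higher in WT OVA than in WT PBS goblet-like cells.

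Scgb1a1 had 240846 CPM in DJ-1 KO OVA goblet-like cells, against 322107 in WT OVA and 346722 in WT PBS, a ratio of 0.748 for DJ-1 KO OVA to WT OVA. Scgb3a1 had 37155 CPM in DJ-1 KO OVA, 59576 in WT OVA and 60446 in WT PBS, a ratio of 0.624 for DJ-1 KO OVA to WT OVA. Wfdc2 had 10991 CPM in DJ-1 KO OVA, 12658 in WT OVA and 10115 in WT PBS. None of these 3 reached 2-fold in either comparison.

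Goblet-like cells were also split by barcode sharing. In DJ-1 KO OVA, the 23 with an unshared barcode had a median of 2869 UMIs and the 50 larger cells of shared barcodes 26549.5. In the unshared cells Bpifa1 was 2780 CPM, Scgb3a2 7164 and Ltf 188, and in the larger cells of shared barcodes these genes had 4418, 9876 and 277 CPM, so both kinds lay below WT OVA. Reg3g was 10428 CPM in the unshared and 11601 CPM in the shared kind, both above WT OVA. In WT PBS only 4 goblet-like cells had an unshared barcode.

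**Figure D4:**
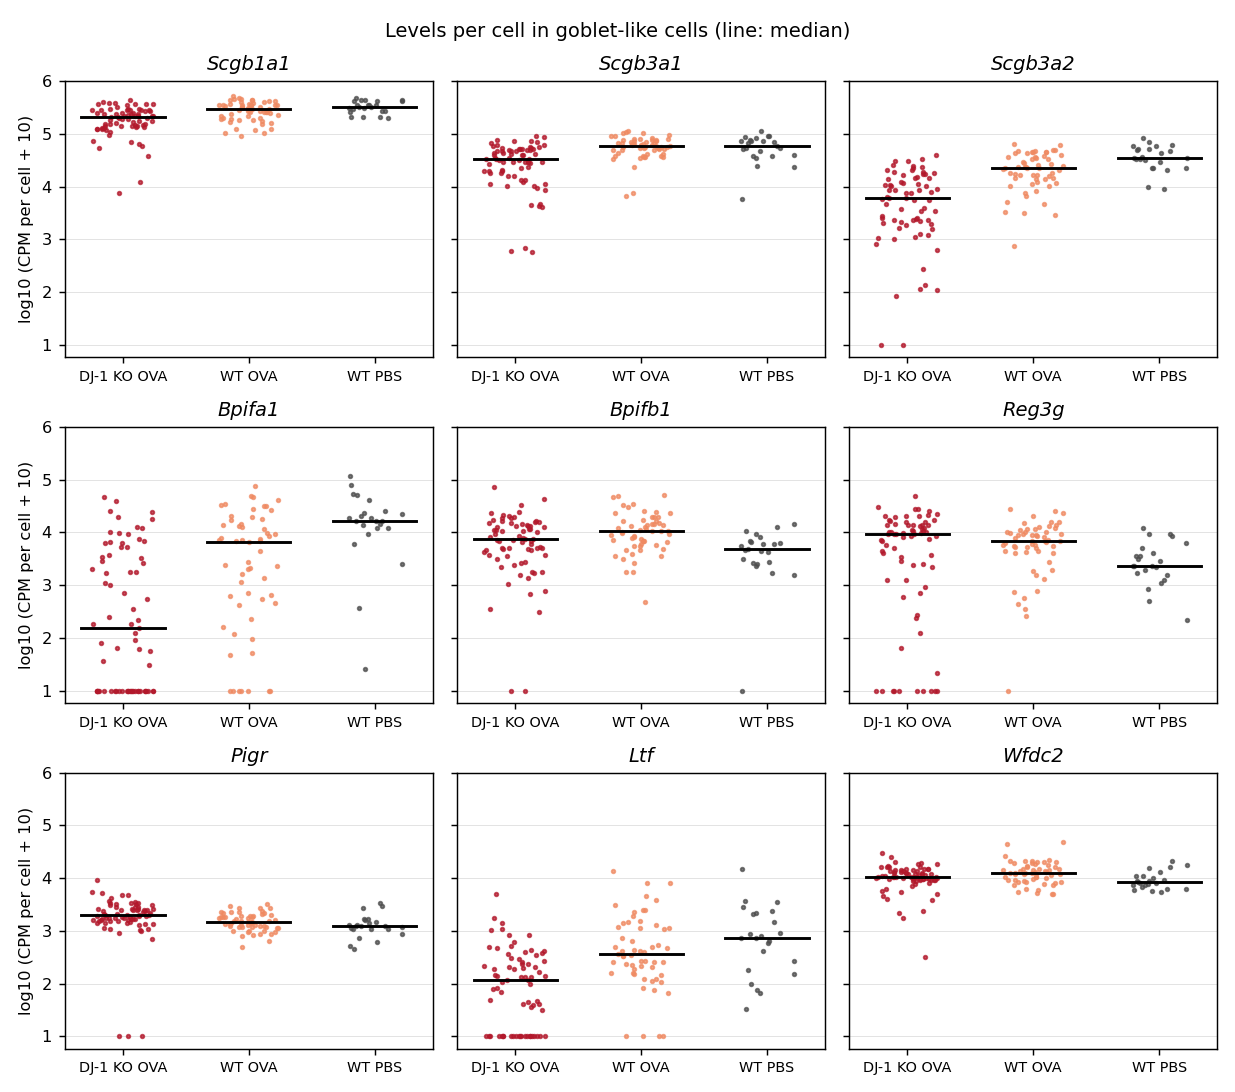
Level of the 9 genes in each goblet-like cell, as log10(CPM per cell + 10), in DJ-1 KO OVA (73 cells), WT OVA (57) and WT PBS (23); each point is 1 cell. Bpifa1 is spread from 0 UMIs to high levels in DJ-1 KO OVA, while all 23 WT PBS cells have at least 1 Bpifa1 UMI. The WT PBS cells are deeper, with a median of 46974 UMIs against 21750 in DJ-1 KO OVA.

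Within goblet-like cells, Reg3g went with Bpifb1 from cell to cell: Spearman's rho was 0.49 over 73 DJ-1 KO OVA cells, 0.48 over 57 WT OVA cells and 0.71 over 23 WT PBS cells. Bpifa1 went with Ltf, at 0.33 in DJ-1 KO OVA, 0.59 in WT OVA and 0.67 in WT PBS. Bpifa1 and Bpifb1 gave 0.52 in DJ-1 KO OVA, 0.71 in WT OVA and 0.06 in WT PBS, and Scgb1a1 and Bpifb1 −0.24 in DJ-1 KO OVA, −0.73 in WT OVA and 0.02 in WT PBS. The last 2 pairs were near 0 in WT PBS, a difference that was not tested. Cells of a library share its depth and its free RNA, and CPM values of abundant genes constrain each other, so these values are a description.

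In AT2-like cells Wfdc2 in every library, and Pigr in both OVA libraries, stood clear of the B cell level and were spread over cells. Pigr was highest in DJ-1 KO OVA, and Wfdc2 differed little. With DJ-1 KO OVA over WT OVA, 2 of 7 measured members were at least 2-fold higher and 3 lower, where 5.04% and 1.70% of 8956 genes were, with medians of −0.32 for the members and 0.09 for all genes. For WT OVA over WT PBS, 6 of 7 were higher and 0 lower, where 1.24% and 0.676% of 9169 genes were, with medians of 2.98 and 0.07. Reg3g and Ltf had under 50 UMIs and were not measured. Apart from Pigr and Wfdc2, these members rested on 1 cell or on CPM near that of B cells.

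Pigr had 247 CPM in DJ-1 KO OVA AT2-like cells, against 36.9 in WT OVA and 4.68 in WT PBS, while B cell-like cells had 4.99 CPM in DJ-1 KO OVA, 4.56 in WT OVA and 2.44 in WT PBS. The ratio was 6.69 (5.71 to 7.87) for DJ-1 KO OVA to WT OVA and 7.90 (4.93 to 13.4) for WT OVA to WT PBS. A Pigr UMI was found in 42.2% of AT2-like cells in DJ-1 KO OVA (125 of 296), 10.4% in WT OVA and 4.95% in WT PBS. In B cell-like cells, where a UMI stands for free RNA, the share was 0.608% in DJ-1 KO OVA, 0.648% in WT OVA and 0.796% in WT PBS. Median depths of AT2-like cells were 9225.5 UMIs in DJ-1 KO OVA, 6922 in WT OVA and 13926 in WT PBS, and those of B cell-like cells 1104 in DJ-1 KO OVA, 1292.5 in WT OVA and 2979.5 in WT PBS. Cells were also thinned to 1000 UMIs, leaving out those with fewer, which kept 284 of 296 DJ-1 KO OVA AT2-like cells, 766 of 769 WT OVA cells and 296 of 303 WT PBS cells, and 227 of 329, 820 of 926 and 612 of 628 B cell-like cells in the same libraries. After thinning, 17.6% of AT2-like cells had a Pigr UMI in DJ-1 KO OVA, 2.35% in WT OVA and 0.676% in WT PBS. The thinned B cell-like shares were 0.441% in DJ-1 KO OVA, 0.610% in WT OVA and 0 of 612 cells in WT PBS, which allows up to 0.490%. At equal depth the DJ-1 KO OVA library thus stood well above WT OVA, and the WT PBS share was near the B cell background.

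The AT2-like class joined 2 clusters whose sizes differed between libraries. The first held 83 cells in DJ-1 KO OVA, 707 in WT OVA and 300 in WT PBS, and the second, led by Slc26a4, Chia1, Il33 and Lcn2, held 213 in DJ-1 KO OVA, 62 in WT OVA and 3 in WT PBS. In the first, Pigr was 41.1 CPM in DJ-1 KO OVA, 18.5 in WT OVA and 4.77 in WT PBS. In the second it was 293 CPM in DJ-1 KO OVA, against 179 in WT OVA, with 0 UMIs in the 3 WT PBS cells. The order was the same within the first cluster, but the log2 ratio of DJ-1 KO OVA to WT OVA was 1.15 there and 2.74 over the class. With the smaller cells of shared barcodes kept and all cells clustered again, DJ-1 KO OVA had 88 AT2-like cells and the log2 ratio of Pigr was −0.069. Of those 88 cells 0 were smaller cells, so this value is for a changed class. The goblet list summed over AT2-like cells to 1052 CPM in DJ-1 KO OVA, 109 in WT OVA and 28.3 in WT PBS. Slc26a4 alone gave 976.5, 76.5 and 19.4 CPM of these sums. In DJ-1 KO OVA Chil4 had 41.9 CPM and Clca1 15.2, below the 132 and 54.9 CPM of B cell-like cells. Muc5ac had 2 UMIs and Spdef 7 there, against 0 in B cell-like cells. The part of the goblet list in the Pigr values was not tested.

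Wfdc2 had 2604 CPM in DJ-1 KO OVA AT2-like cells, against 3254 in WT OVA and 3138 in WT PBS, a ratio of 0.800 for DJ-1 KO OVA to WT OVA and of 1.04 for WT OVA to WT PBS. A Wfdc2 UMI was found in 293 of 296 cells in DJ-1 KO OVA, 766 of 769 WT OVA cells and 303 of 303 WT PBS cells, against 5.47%, 10.4% and 3.50% of B cell-like cells in the same libraries. In the first AT2 cluster Wfdc2 had 3031 CPM in DJ-1 KO OVA, 3262 in WT OVA and 3134 in WT PBS. Wfdc2 was thus carried by nearly all AT2-like cells at close levels in the 3 libraries.

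Scgb1a1 had 1359 CPM in DJ-1 KO OVA AT2-like cells, against 3500 in WT OVA and 610 in WT PBS, while B cell-like cells had 1744 CPM in DJ-1 KO OVA, 1252 in WT OVA and 560 in WT PBS. In WT OVA, 1 AT2-like cell held 75.1% of the Scgb1a1 UMIs, 82.4% of Scgb3a1, 71.9% of Scgb3a2 and 48.5% of Bpifb1. It had 55574 UMIs, with 14305 of Scgb1a1 and 1483 of the surfactant gene Sftpc, and without it Scgb1a1 was 879 CPM, below the B cell level. In DJ-1 KO OVA the highest cell held 27.8%, and Scgb1a1 was 986 CPM without it, so without these cells the OVA libraries stood in the other order. Per cell, AT2-like cells had 12.4 Scgb1a1 UMIs in DJ-1 KO OVA, 24.8 in WT OVA and 8.18 in WT PBS, and the shallower B cell-like cells 2.12 in DJ-1 KO OVA, 1.78 in WT OVA and 1.83 in WT PBS. AT2-like cells of DJ-1 KO OVA thus stood below B cells in CPM and above them in UMIs per cell, and in WT OVA the same held in CPM without the highest cell.

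The other secretoglobins and BPI-fold genes were low in AT2-like cells. Scgb3a1 had 44.1 CPM in DJ-1 KO OVA, 225 in WT OVA and 8.86 in WT PBS, and Scgb3a2 13.3 CPM in DJ-1 KO OVA, 64.2 in WT OVA and 5.41 in WT PBS. For each 1000 Scgb1a1 UMIs, AT2-like cells had 32.4 Scgb3a1 UMIs in DJ-1 KO OVA, 64.2 in WT OVA and 14.5 in WT PBS, and B cell-like cells 52.9 in DJ-1 KO OVA, 88.0 in WT OVA and 49.6 in WT PBS. As summed, the ratio between these secretoglobins was thus lower in AT2-like cells than in the free RNA of B cells in every library. In DJ-1 KO OVA, however, 1 AT2-like cell held 1018 of the 3668 Scgb1a1 UMIs and 0 of Scgb3a1. A single WT OVA cell held 75.1% of the Scgb1a1 and 82.4% of the Scgb3a1 UMIs. Neither these cells nor counting error were allowed for, so the order of AT2-like and B cell-like cells is a description. Bpifb1 had 15.6 CPM in DJ-1 KO OVA, 18.6 in WT OVA and 1.97 in WT PBS. Bpifa1 had 106 CPM in DJ-1 KO OVA, 6.99 in WT OVA and 3.45 in WT PBS, but 1 DJ-1 KO OVA cell held 272 of the 286 UMIs and left 5.23 CPM without it.

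**Figure D5:**
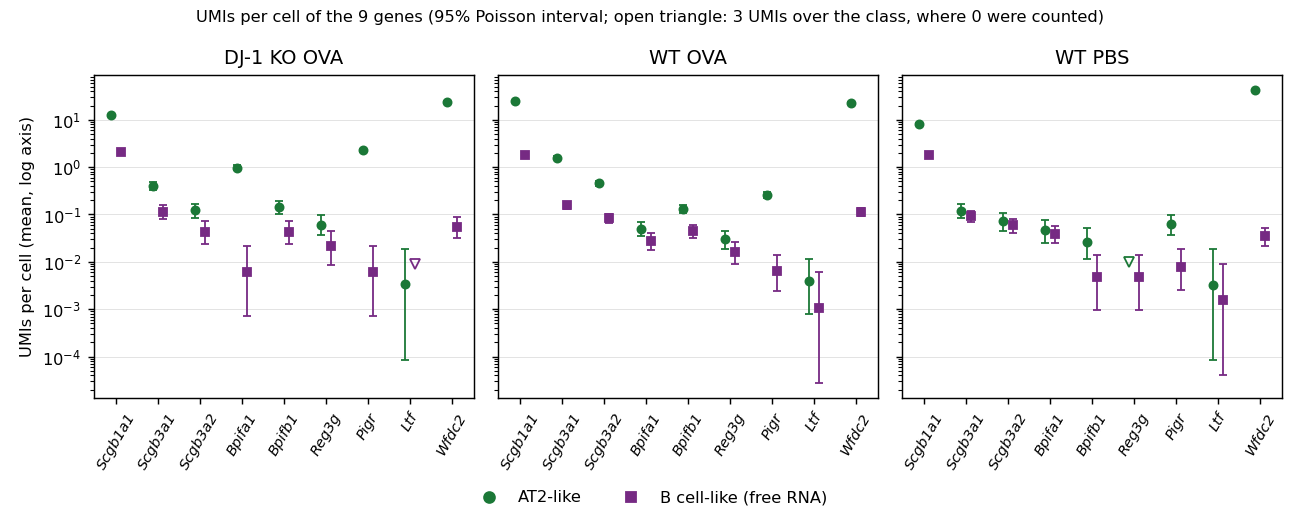
Mean UMIs per cell of the 9 genes in AT2-like and B cell-like cells of the same library, on a log scale. The libraries are DJ-1 KO OVA, WT OVA and WT PBS. An open triangle stands for 3 UMIs over the class where 0 were counted. Wfdc2 has 23.7 UMIs per AT2-like cell in DJ-1 KO OVA, 23.0 in WT OVA and 42.1 in WT PBS. Pigr has 2.25 in DJ-1 KO OVA. These values lie far above those of B cell-like cells of the same library.

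Over 61 points, each a class in a library, the genes most like Scgb1a1 in log2(CPM + 10) were Scgb3a2, with Pearson's r of 0.97, and Gabrp, with 0.96. Scgb3a1 was most like Tff2 and Muc5b, at 0.95 each, and Scgb3a2 was most like Scgb1a1. Reg3g was most like Agr2, at 0.97, and Bpifb1 was most like Reg3g and Tff2, at 0.95 each. Bpifa1 was most like Oit1, at 0.96, and Pigr like Tspan1 and Gpx2, at 0.95 each. Wfdc2 was most like Smim22 and 5330417C22Rik, at 0.96 each, and Ltf like Rhov, at 0.83. The points share libraries, depth and free RNA, so the values are a description.

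Other airway defence genes were a list of 40. Of these, 3 were leading genes of the club-like clusters, 4 were markers or leading genes of the AT2-like clusters and 0 of the goblet-like cluster. The list's counts in club-like and AT2-like cells are therefore not independent of the clustering and naming. Between the OVA libraries 17 genes of the list were measured in club-like cells. At least 2-fold higher in DJ-1 KO OVA were 7 (41.2%), and 3 (17.6%) were lower, where 5.61% and 2.27% of all measured genes were. The list's median log2 ratio was 0.68. Retnla, a resistin-like protein of type 2 inflammation, had 85702 CPM in DJ-1 KO OVA club-like cells, against 15298 in WT OVA and 239 in WT PBS. Lcn2, which binds bacterial iron carriers, had 386 CPM in DJ-1 KO OVA, against 117 in WT OVA. The 3 lower genes were S100a8, S100a9 and the lysozyme gene Lyz2. The neutrophil proteins S100a8 and S100a9 had 1.11 and 2.23 CPM in DJ-1 KO OVA, against 348 and 384 CPM in WT OVA, where 1 cell held 70.7% and 63.2% of their UMIs.

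The shares of all genes given above for each class and comparison are the background of every count that follows. In goblet-like cells, where 3.32% of all genes were higher, 4 of 17 of these genes were higher in DJ-1 KO OVA, namely Retnla, Retnlg, Saa3 and, named after its values were seen, Scgb1c1, and 2 were lower, Lyz2 and Lcn2. Retnla there had 78268 CPM in DJ-1 KO OVA, 19783 in WT OVA and 4106 in WT PBS, where 1 cell held 76.8% of its UMIs. In AT2-like cells 8 of 18 were higher, among them the complement component C3 with 816 CPM in DJ-1 KO OVA, against 218 in WT OVA, and 3 were lower, S100a8, S100a9 and Retnlg. The highest AT2-like cell held 86.5% of the S100a8 and 81.4% of the S100a9 UMIs in DJ-1 KO OVA. In WT OVA it held 38.2% and 49.5%. Retnla in AT2-like cells had 37651 CPM in DJ-1 KO OVA, 2972 in WT OVA and 46.8 in WT PBS, so in all 3 classes it was highest in DJ-1 KO OVA and lowest in WT PBS. With WT OVA over WT PBS, 6 of 15 were higher and 0 lower in club-like cells, 2 of 14 higher and 2 lower in goblet-like cells, and 2 of 17 higher and 0 lower in AT2-like cells.

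Airway mucous genes were a list of 18, of which 10 were also markers or leading genes of the goblet clusters, so their counts there are partly fixed by the naming. In goblet-like cells 8 of 16 measured were higher and 0 lower in DJ-1 KO OVA, with a median of 0.96. With WT OVA over WT PBS 10 of 14 were higher and 0 lower, with a median of 1.54. The gel-forming mucin Muc5ac had 1034 CPM in DJ-1 KO OVA, 481 in WT OVA and 26.8 in WT PBS. The chitinase-like protein Chil4 reached 55568 CPM in DJ-1 KO OVA, against 4006 in WT OVA. In club-like cells 7 of 9 measured were higher and 0 lower in DJ-1 KO OVA, but 1 cell held 96.1% of the Chil4 and 97.5% of the Clca1 UMIs there, and without it 3 of 6 were higher. With WT OVA over WT PBS 2 of 5 were higher in club-like cells, the mucin Muc5b and the trefoil factor Tff2, and 0 were lower. In AT2-like cells 2 of 7 were higher in DJ-1 KO OVA, Chil4 and the anion exchanger Slc26a4, and 2 of 5 in WT OVA over WT PBS, Slc26a4 and the mucus protein Fcgbp, with 0 lower in both.

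Club cell enzymes were a list of 16, of which 11 were club markers or leading genes of clusters. In club-like cells 0 of 14 measured were at least 2-fold higher in DJ-1 KO OVA, with a median of −0.17, and 0 were higher and 0 lower in WT OVA over WT PBS. In goblet-like cells 5 of 15 were lower and 0 higher in both comparisons, with medians of −0.64 between the OVA libraries and −0.67 for WT OVA over WT PBS. Cyp4b1, a cytochrome P450 of club cells, had 7.19 CPM in DJ-1 KO OVA goblet-like cells, against 97.6 in WT OVA and 365 in WT PBS. Haptoglobin (Hp) had 65.9 CPM in DJ-1 KO OVA, 293 in WT OVA and 1863 in WT PBS, and both genes were named after their goblet-like values were seen. In AT2-like cells 0 of 11 were higher and 0 lower in either comparison. The club marker list summed over goblet-like cells to 7189 CPM in DJ-1 KO OVA, 9840 in WT OVA and 18292 in WT PBS, the order of Scgb3a2, Bpifa1 and Ltf there, and its part in their values was not tested.

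Of 7 genes of IgA assembly, only Xbp1, a transcription factor of the secretory pathway, was measured in any of the 3 classes. Xbp1 had 245 CPM in DJ-1 KO OVA club-like cells, against 119 in WT OVA, and 479 CPM in DJ-1 KO OVA AT2-like cells, against 228 in WT OVA. These were the classes in which Pigr was at least 2-fold higher.

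Receptors and regulators of airway secretory genes were a list of 22. In AT2-like cells 1 of 20 measured was at least 2-fold higher in DJ-1 KO OVA and 0 lower, where 5.04% and 1.70% of all genes were, so the list did not stand apart. The gene was Il4ra, the receptor chain shared by the type 2 cytokines, with 81.5 CPM in DJ-1 KO OVA, against 37.3 in WT OVA. In club-like cells 0 of 15 were higher and 1, the interferon-gamma receptor gene Ifngr1, was lower. In goblet-like cells 0 of 17 were higher and 2 lower, Nfkbiz and, named after its values were seen, Zc3h12a. With WT OVA over WT PBS, Nfkbiz and Ifngr1 were higher in club-like cells (2 of 15), Elf3, named after its values were seen, in goblet-like cells (1 of 15) and Cebpb in AT2-like cells (1 of 20), and 0 were lower in any class.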

How the data were processed

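Libraries were made with the 10x Genomics Chromium 3′ kit, version 3, from whole lung, per the labels' protocols. The deposited values are UMI counts per gene and cell barcode, made by the authors with Cell Ranger and STAR on mm10, per the submitters' processing notes; the file headers give Cell Ranger matrix software 3.1.0. The annotation release is not given in the sources used here. Reads of a gene that could also come from near-identical copies were resolved by that counting, which was not rechecked.

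Barcodes under 200 detected genes or over 20% mitochondrial UMIs were removed, and the smaller cell of each barcode shared by WT PBS and DJ-1 KO OVA was dropped. Scrublet, with an expected rate of 0.06, removed 3 cells from DJ-1 KO OVA, 162 from WT OVA and 57 from WT PBS. The caller marked almost nothing in DJ-1 KO OVA, so doublets there were largely untreated. The libraries were joined, and 2000 variable genes, 30 principal components, 15 neighbours and Leiden clustering at resolution 1 were used, with the 9 genes left out of clustering and naming. Clusters were named from 34 marker lists, a name needing a mean log2 excess of at least 1 and 3 markers in 10% of cells. Names rebuilt in this way can differ from the study's own.

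UMIs were summed by class and library. CPM has exact Poisson intervals, ratios exact conditional binomial intervals and shares Clopper-Pearson intervals, all at 95%. A ratio was called measured with 50 UMIs in both libraries together and 10 cells in each, and called past the limit at 2-fold; a gene at 0 was set to 3 UMIs in medians. For comparison across depths, each cell was thinned to 1000 UMIs and cells with fewer were left out. Genes named besides the 9 were the 2 most alike in log2(CPM + 10) and, from each of 5 lists (103 genes, 101 in the files), up to 4 with the highest and 4 with the lowest ratio past 2-fold; markers and Park7 were also named. The 9 genes and all lists were chosen with earlier results of these data known. There were 16 planned and 3 later alternatives. The scripts were tested on simulated data. The software was scanpy 1.11.5, pandas 2.3.3, scipy 1.17.1, numpy 2.4.6 and Python 3.11.15, with anndata 0.12.19, leidenalg 0.10.2, igraph 0.11.9, scikit-learn 1.9.0 and matplotlib 3.10.9. The values of 1 club cell enzyme are not reported here.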

Additional observations from a re-analysis of the deposited data

Results flagged for a closer look

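For 6 of the genes the library ratio lay above 1 in 1 class and below 1 in another, with counting intervals on opposite sides of 1 and a gap of at least 1 on the log2 scale. The differences between classes below are differences of log2 ratios. With 1 library per group they were not tested, and the intervals cover counting error only.

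With WT OVA over WT PBS, Scgb1a1 gave −0.16 in club-like, −0.11 in goblet-like and 2.52 in AT2-like cells, so club-like minus AT2-like was −2.68 and goblet-like minus AT2-like was −2.63. Scgb3a1 gave 1.505 in club-like, −0.02 in goblet-like and 4.67 in AT2-like cells, so club-like minus goblet-like was 1.53 and goblet-like minus AT2-like was −4.69. Scgb3a2 gave −0.25, −0.67 and 3.57 in these 3 classes, so club-like minus AT2-like was −3.81 and goblet-like minus AT2-like was −4.23. Bpifa1 gave −1.48 in goblet-like and 1.02 in AT2-like cells, a difference of −2.50. Its AT2-like ratio rested on 38 UMIs in WT OVA and 14 in WT PBS. In neither library did its AT2-like CPM interval lie wholly above that of B cell-like cells. In WT PBS AT2-like cells this was also so for Scgb1a1, Scgb3a1 and Scgb3a2. Of the AT2-like UMIs in WT OVA, 75.1% of Scgb1a1, 82.4% of Scgb3a1 and 71.9% of Scgb3a2 came from 1 cell.

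With DJ-1 KO OVA over WT OVA, Scgb3a1 gave 0.50 in club-like, −0.68 in goblet-like and −2.35 in AT2-like cells, so club-like minus goblet-like was 1.18 and club-like minus AT2-like was 2.85. Bpifa1 gave 1.53, −1.16 and 3.92 in these classes, so club-like minus goblet-like was 2.69 and goblet-like minus AT2-like was −5.08, and 95.1% of the DJ-1 KO OVA AT2-like UMIs and 75.9% of the club-like UMIs of Bpifa1 came from 1 cell each. Without that club-like cell Scgb3a1 gave −0.19 in club-like cells, so its direction there turned. Bpifb1 gave 2.41 in club-like and −0.09 in goblet-like cells, a difference of 2.50. Ltf gave 0.79 and −1.80, a difference of 2.59.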

How the results depend on the processing

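No paired analysis was possible because each group is 1 pooled library. Values below are log2 ratios, and the cause of each move was not tested unless the setting itself fixes it. With DJ-1 KO OVA over WT OVA, the members' median in club-like cells (0.79) was 0.28 at a 10% mitochondrial limit, −0.28 with club-like and goblet-like cells pooled and 0.23 without 1 DJ-1 KO OVA cell, an alternative chosen after seeing the data that left 2 members at least 2-fold higher in place of 4. In goblet-like cells (−0.42) it was −0.41 with the smaller cells of shared barcodes kept, −0.58 with both cells left out, −0.39 with the 9 genes kept in clustering, −0.44 at 10% mitochondrial UMIs, −0.56 over UMIs outside the members and mucous genes, −0.53 with median-ratio scaling, −0.48 as a mean of per-cell CPM, −0.45 thinned, −0.41 without the largest cell and −0.28 pooled. In AT2-like cells (−0.32) it was −0.033 with smaller cells kept, −1.07 with both left out, 0.38 at 10% mitochondrial UMIs, 0.22 as a per-cell mean, 0.21 thinned and 0.10 without the largest cell. It was 0.50 with a doublet score limit of 0.25 and 0.37 in the largest AT2 cluster, 2 alternatives chosen after seeing the data. The sign of that median is thus not fixed.

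With WT OVA over WT PBS, the club-like median (0.59) was −0.064 pooled. The AT2-like median (2.98) was 1.95 with smaller cells kept, 1.98 at 10% mitochondrial UMIs, 2.27 as a per-cell mean, 1.80 thinned, 1.88 without the largest cell, 1.71 at the doublet limit and 1.83 in the largest cluster. At 1.5-fold, goblet-like members were 2 higher and 3 lower in this comparison, against 0 and 1 at 2-fold, and 1 was higher in DJ-1 KO OVA, against 0.

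Several genes turned round. In club-like cells Scgb3a1 was −0.42 as a per-cell mean and −0.28 pooled for WT OVA over WT PBS. With DJ-1 KO OVA over WT OVA it was −0.61 as a per-cell mean, −0.40 thinned, −0.28 pooled and −0.19 without that cell, and Bpifa1 was −0.76 pooled for DJ-1 KO OVA. In AT2-like cells, DJ-1 KO OVA over WT OVA, keeping smaller cells gave Scgb1a1 0.29, Scgb3a2 0.0025 and Pigr −0.069, with 88 DJ-1 KO OVA cells in place of 296. Of those 88 cells 0 were smaller cells, so these values are for a class that the new clustering changed. The 10% mitochondrial limit, with 110 cells, gave Scgb1a1 1.36, Scgb3a1 0.19 and Scgb3a2 0.38. Scgb1a1 was 0.22 as a per-cell mean, and thinning gave Scgb1a1 0.21 and Scgb3a1 0.58. Without the largest cell Scgb1a1 was 0.17, Scgb3a1 0.10 and Bpifa1 −0.34. The doublet limit gave Scgb1a1 0.96 and Scgb3a1 0.39, and the largest cluster gave Scgb1a1 0.39, Scgb3a1 0.36 and Scgb3a2 0.32. Pigr in AT2-like cells stayed above 0 in 14 of 15 alternatives with DJ-1 KO OVA over WT OVA and in 15 of 15 for WT OVA over WT PBS.

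Club-like cells gave no value with both cells of shared barcodes left out or with each library clustered on its own. Leaving both out left 0 club-like cells, and 38 goblet-like cells in DJ-1 KO OVA, 119 in WT OVA and 22 in WT PBS, and moved goblet-like Scgb1a1 to −1.50 with DJ-1 KO OVA over WT OVA and to 0.61 for WT OVA over WT PBS. Reg3g and Ltf in AT2-like cells had under 50 UMIs in each comparison and were not measured. The same held for Reg3g and Bpifa1 in club-like cells for WT OVA over WT PBS.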

Other observations

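Ciliated-like cells, of which there were 11 in DJ-1 KO OVA, 12 in WT OVA and 7 in WT PBS, carried Scgb1a1 at 287502 CPM in DJ-1 KO OVA, 243399 in WT OVA and 568 in WT PBS. The highest cell held 38.9% of it in DJ-1 KO OVA. A single WT OVA cell of 127945 UMIs held 83.2% and left 72960 CPM without it. The median ciliated-like cell had 10304 CPM in DJ-1 KO OVA, 1566 in WT OVA and 666 in WT PBS. Wfdc2 in these cells had 5948 CPM in DJ-1 KO OVA, 3609 in WT OVA and 3188 in WT PBS.

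Mesothelial-like cells, 69 in DJ-1 KO OVA, 105 in WT OVA and 33 in WT PBS, had Scgb1a1 at 18714 CPM in DJ-1 KO OVA, 592 in WT OVA and 2366 in WT PBS. The highest cell held 95.8% of it in DJ-1 KO OVA, leaving 856 CPM, and 87.0% in WT PBS, leaving 311 CPM. In neutrophil-like cells Ltf had 312 CPM in DJ-1 KO OVA, 756 in WT OVA and 571 in WT PBS, and in DJ-1 KO OVA 1 cell held 98.6% of its 72 UMIs.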
